A study of Mus musculus with 6 samples.

Results

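Guanylate-binding proteins (GBPs) are large GTPases of the dynamin superfamily that are strongly induced by interferons. The family was followed here in whole brain of adult mice that lacked ADAR1 editing, through the rows of the gene count table whose symbol is on a list of 9 GBP names: *Gbp2* to *Gbp9* and *Gm43302*, a gene of the chromosome 5 *Gbp* cluster. Of these 9 symbols, 7 had a row among the 37310 rows of the table. *Gbp5* and *Gbp6* had no row under those symbols. By position in the GENCODE vM1 annotation of the NCBIM37 genome, which is the build of the counts, the row listed as *Gm43302* (ENSMUSG00000079362) is *Gbp6*, and the row listed as *Gbp2b* (ENSMUSG00000040264) is *Gbp5*. The table also held 4 family rows outside the list: that *Gbp2b* row, *Gbp11*, and 2 rows without a symbol that GENCODE vM1 names *Gbp1* (ENSMUSG00000028269) and *Gbp10* (ENSMUSG00000054588).

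RNA was sequenced from 12-week-old male mice on a C57BL/6 background. There were 3 *Adar1* E861A/E861A *Ifih1*-/- libraries, here called E861A, and 3 *Adar1*+/+ *Ifih1*-/- libraries, here called WT, and the labels describe the 3 of each genotype as independent. The E861A allele is a point mutation that leaves the ADAR1 protein present but removes its adenosine-to-inosine editing of double-stranded RNA. Both genotypes lacked *Ifih1*, which encodes MDA5, the cytoplasmic sensor of unedited double-stranded RNA, so both the mutant and its control were MDA5-deficient and no *Ifih1*+/+ brain was compared. The comparison asks how the expression of these genes differs with loss of editing by ADAR1 once MDA5 is absent. It is not a loss of all editing: the study found more *Adar2* than *Adar1* transcript in brain, and editing there was largely kept in the mutant.

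GBPs bind and hydrolyse guanine nucleotides, assemble into oligomers, and coat vacuoles that hold parasites or bacteria, as well as bacteria free in the cytosol. Several carry a C-terminal lipid anchor that holds them at membranes. In mice the genes lie in 2 clusters and are transcribed through interferon-activated factors, which bind the gamma-activated site (GAS) and the interferon-stimulated response element (ISRE). In brain they are known as induced genes of microglia, astrocytes and endothelial cells during infection and inflammation.

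The clusters lie on chromosome 3, with the listed genes on the plus strand, and on chromosome 5, with all of them on the minus strand. On chromosome 3 (NCBIM37), *Gbp7* spans 142193302 to 142213047, *Gbp3* 142223016 to 142236173 and *Gbp2* 142283566 to 142300972. The *Gbp5* gene, counted under *Gbp2b*, opens this cluster at 142159864 to 142185308, and the row that vM1 names *Gbp1* lies between *Gbp3* and *Gbp2* at 142257811 to 142282143. On chromosome 5, *Gbp8* spans 105443172 to 105482580, *Gbp9* 105507413 to 105539311 and *Gbp4* 105544786 to 105568605. *Gbp10* follows at 105643926 to 105668552, *Gm43302* at 105699723 to 105722718 and *Gbp11* at 105755499 to 105772948. Each of the 11 is annotated as protein coding, and 0 of the 11 overlaps another annotated gene on either strand.

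RefSeq promoters (GRCm38.p6) were matched by symbol for 5 family genes, all on chromosome 3. The 250 bases before each start site are shown for them because these genes sit side by side in the genome and their rows differ in level. Each matched chromosome 3 of NCBIM37 at 1 place, which gives the coordinates here. Of the 2 promoters given for *Gbp3*, the upstream one is shown. The sequences run 5′ to 3′, and capitals mark an ISRE core (GAAANNGAAA, or TTTCNNTTTC when read on the other strand) or a GAS (TTCNNNGAA, the same on both strands).
Gbp7 (chr3:142193050-142193299, + strand): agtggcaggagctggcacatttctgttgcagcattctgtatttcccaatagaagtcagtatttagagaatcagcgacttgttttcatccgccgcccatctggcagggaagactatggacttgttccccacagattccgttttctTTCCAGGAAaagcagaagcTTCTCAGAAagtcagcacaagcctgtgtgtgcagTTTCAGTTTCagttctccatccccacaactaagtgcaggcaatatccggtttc
Gbp3 (chr3:142222758-142223007, + strand): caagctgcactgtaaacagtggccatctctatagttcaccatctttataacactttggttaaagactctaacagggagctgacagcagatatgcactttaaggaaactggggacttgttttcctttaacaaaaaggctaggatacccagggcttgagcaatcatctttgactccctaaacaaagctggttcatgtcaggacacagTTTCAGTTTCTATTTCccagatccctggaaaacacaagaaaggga
Gbp2 (chr3:142283377-142283626, + strand): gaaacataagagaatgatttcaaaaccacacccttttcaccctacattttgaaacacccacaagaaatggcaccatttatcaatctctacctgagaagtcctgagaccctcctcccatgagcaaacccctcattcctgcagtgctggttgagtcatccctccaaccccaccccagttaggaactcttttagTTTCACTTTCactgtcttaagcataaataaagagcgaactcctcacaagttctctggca
Gbp5 (chr3:142159648-142159897, + strand): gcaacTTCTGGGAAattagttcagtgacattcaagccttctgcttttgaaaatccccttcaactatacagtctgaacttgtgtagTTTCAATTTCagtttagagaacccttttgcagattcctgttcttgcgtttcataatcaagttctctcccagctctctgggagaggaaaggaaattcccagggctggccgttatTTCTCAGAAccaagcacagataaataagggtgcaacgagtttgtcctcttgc
Gbp2b (chr3:142257561-142257810, + strand): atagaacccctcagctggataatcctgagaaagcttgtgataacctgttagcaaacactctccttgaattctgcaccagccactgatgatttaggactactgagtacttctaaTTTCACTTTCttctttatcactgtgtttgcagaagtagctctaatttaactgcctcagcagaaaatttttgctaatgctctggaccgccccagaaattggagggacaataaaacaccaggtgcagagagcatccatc

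An ISRE core was present before the start site of 5 of the 5 genes, whereas 2.98% of all 32851 RefSeq mouse promoters held one in the same window. *Gbp3* had 2 overlapping copies, which begin 45 and 39 bases before its start site, and the *Gbp7* and *Gbp2* cores begin 53 and 59 bases before theirs. The cores of *Gbp5* and *Gbp2b* lay further away, from 165 and 137 bases before the start site. A GAS was present at 2 places in *Gbp7* and at 2 places in *Gbp5* and was not found in the windows of *Gbp3*, *Gbp2* or *Gbp2b*; 7.02% of all promoters held one. No matched letters were found in the downstream *Gbp3* window. The matches are descriptions of these letters and not evidence of binding. They also bear on the names: the RefSeq *Gbp5* promoter ends 34 bases into the gene counted as *Gbp2b*, and the RefSeq *Gbp2b* promoter ends directly before the first base of the gene that vM1 names *Gbp1*.

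GBP transcripts were higher in E861A than in WT brain. Of the 7 members with a row, 6 were expressed well enough to be tested, reaching 2 counts per 1000000 counts of the library (CPM) in every library of E861A or of WT, and all 6 were higher in E861A at an adjusted p under 0.05 (edgeR quasi-likelihood test, Benjamini-Hochberg over all genes tested). Across the 13649 genes tested, 0.41% were called higher. *Gm43302*, *Gbp2* and *Gbp4* reached 2 CPM in all libraries of E861A and not of WT, so these 3 could enter the test only by being higher there, while *Gbp7*, *Gbp3* and *Gbp9* reached it in both genotypes. With edgeR's filterByExpr filter, which tested 19366 genes and called 0.449% higher, the same 6 were called. Fold changes ran from 1.66 for *Gbp7* to 3.19 for *Gm43302*, and the median log2 value was 1.24 over the 6 and -0.0010 over all genes tested.

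*Gbp7* and *Gbp3* were the most abundant of the members. *Gbp7*, a protein that coats parasite vacuoles and takes part in host defence against intracellular bacteria, was at 8.86, 11.3 and 13.4 CPM in E861A replicates 1, 2 and 3 and at 6.17, 6.71 and 7.26 CPM in WT. Its lowest E861A library stood above the highest WT library. The log2 fold change was 0.73 ± 0.13 (SE, n = 3 per genotype; edgeR adjusted p = 0.0161), the smallest among the called members. *Gbp3*, which is also recruited to *Toxoplasma* vacuoles, was at 6.65, 7.53 and 8.65 CPM in E861A and 3.44, 2.53 and 2.51 CPM in WT. The groups were again separate, and the WT library labelled replicate 1 was the highest of its group. The log2 fold change of *Gbp3* was 1.42 ± 0.14 (SE, n = 3; edgeR adjusted p = 0.000139).

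*Gbp2* encodes a lipid-anchored GBP that is among the first to reach pathogen vacuoles. It was at 3.67, 4.85 and 5.30 CPM in E861A and 2.16, 1.92 and 1.62 CPM in WT, so the groups did not overlap. The log2 fold change was 1.28 ± 0.16 (SE, n = 3; edgeR adjusted p = 0.000969). The fitted changes of *Gbp3* and *Gbp2* were larger than that of *Gbp7* in the same cluster.

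On chromosome 5, *Gm43302* (*Gbp6* in vM1) had the largest fold change of the called members. It was at 4.35, 4.15 and 4.63 CPM in E861A and 1.36, 1.31 and 1.42 CPM in WT. GBP6 coats parasite vacuoles and is known for defence against bacteria. The log2 fold change was 1.68 ± 0.14 (SE, n = 3; edgeR adjusted p = 1.27e-05), which ranked 7th among the 13649 genes tested and 30th among the 19366 tested with filterByExpr. It reached 2 CPM in every library only in E861A. This row shares sequence with *Gbp10*, as described below. *Gbp4* was at 2.34, 2.68 and 3.54 CPM in E861A and 1.45, 1.15 and 1.06 CPM in WT, with no overlap and a log2 fold change of 1.21 ± 0.19 (SE, n = 3; edgeR adjusted p = 0.00536). *Gbp9*, another GBP found at parasite vacuoles, was at 3.90, 4.38 and 4.55 CPM in E861A and 2.78, 2.40 and 2.18 CPM in WT. Here too every E861A library was above every WT library, and the log2 fold change was 0.80 ± 0.14 (SE, n = 3; edgeR adjusted p = 0.0121).

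*Gbp8* was close to the limit of detection. It had 5, 14 and 16 counts in E861A and 4, 8 and 5 counts in WT, and the groups overlapped. Summed over libraries, its 35 counts against 17 gave a ratio of 2.46 between genotypes at equal depth (95% exact interval 1.34 to 4.69, which covers counting error only). It passed neither filter, and in a fit of every gene with a count the edgeR adjusted p was 0.264, so a difference in *Gbp8* was not detectable at this depth.

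**Figure D1:**
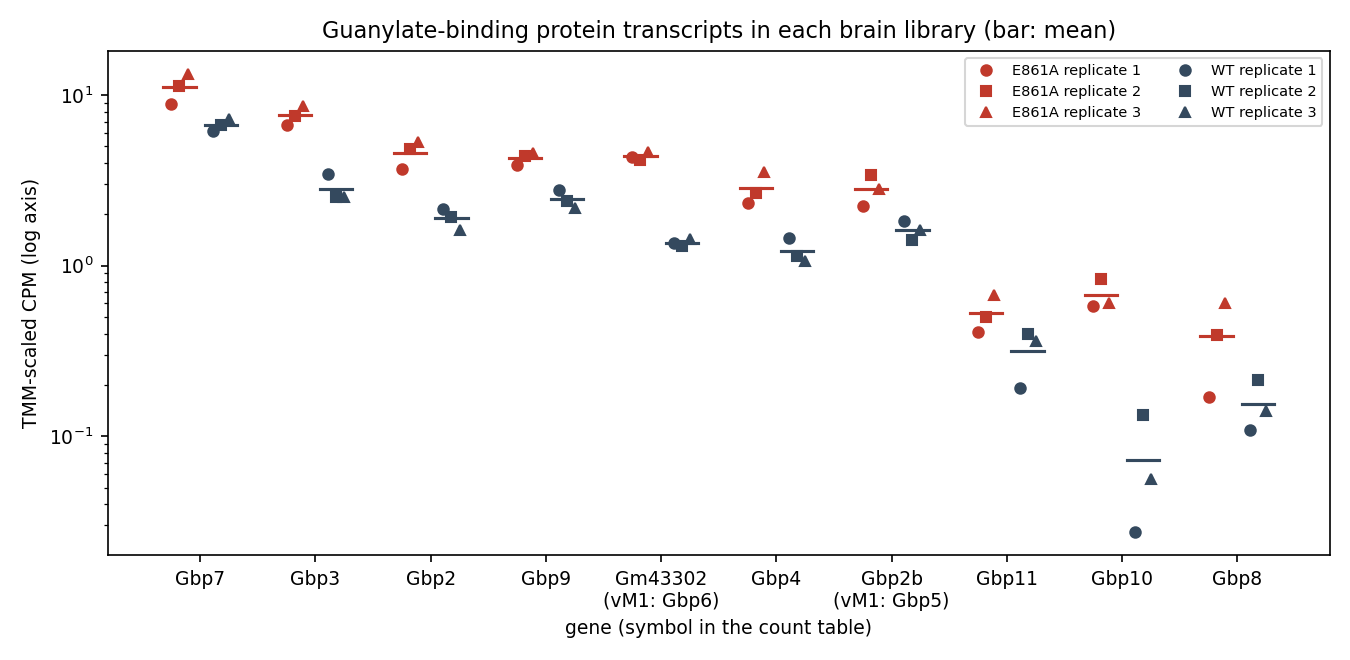
Level of each *Gbp* row in the 6 libraries, as CPM on a log axis; points are libraries, with the replicate number as the symbol, and bars are the means of 3 libraries of E861A (red) or WT (blue). The 6 called members lie above WT without overlap, from *Gbp7* at 8.86 to 13.4 CPM against 6.17 to 7.26 CPM down to *Gbp4*, whereas *Gbp8* overlaps; the *Gbp1* row, with at most 2 counts in a library, is not drawn.

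Each of the 6 called members was higher in 3 of 3 E861A libraries than in any WT library. Over the genes tested, 7.51% showed this separation in this direction. An exact two-sided permutation test of one gene in 3 against 3 libraries gave p = 0.1 for each of the 6, the smallest p this design allows. Among the E861A libraries, replicate 3 was the highest for 7 of 7 members and replicate 1 the lowest for 6 of 7, the exception being *Gm43302*, which was lowest in replicate 2. Without E861A replicate 3, 3 of the 6 members were called (*Gm43302*, *Gbp3* and *Gbp2*). The log2 fold changes of the others were then 0.60 for *Gbp7* (edgeR adjusted p = 0.199), 0.76 for *Gbp9* (adjusted p = 0.152) and 1.05 for *Gbp4* (adjusted p = 0.0708). *Gbp7* also missed the threshold without WT replicate 1 (log2 fold change 0.68, edgeR adjusted p = 0.0589), as did *Gbp9* without WT replicate 3 (0.72, adjusted p = 0.106).

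Summed over the 7 members, the level was 29.9, 35.3 and 40.6 CPM in E861A and 17.5, 16.2 and 16.2 CPM in WT. The mean sums were 35.3 ± 5.34 and 16.6 ± 0.723 CPM (SD, n = 3), a ratio of 2.12. This sum holds *Gm43302* but not the similar *Gbp10*. Reads that match both of those rows equally are left out of the counts, as described below. By cluster, the ratio was 2.05 for the 3 members on chromosome 3, with 19.2 to 27.3 CPM in E861A against 11.2 to 11.8 CPM in WT. It was 2.29 for the 4 on chromosome 5, with 10.8 to 13.3 against 4.80 to 5.70 CPM. No p is given for a sum over chosen members.

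Of the 4 family rows outside the list, 3 lay above WT without overlap in CPM, as did 7.76% of the genes tested with filterByExpr. The row listed as *Gbp2b*, which holds *Gbp5*, a lipid-anchored GBP linked to the NLRP3 inflammasome, was at 2.24, 3.40 and 2.82 CPM in E861A and 1.83, 1.41 and 1.62 CPM in WT. The groups did not overlap, but the log2 fold change of 0.81 ± 0.18 (SE, n = 3) missed the threshold (edgeR adjusted p = 0.0799). Blocking on replicate number gave an adjusted p of 0.0569, and of 0.0478 under filterByExpr, which passes. *Gbp11* had 12, 18 and 18 counts in E861A and 7, 15 and 13 in WT; the counts overlapped, and the CPM were 0.41 at the lowest in E861A and 0.40 at the highest in WT. Its log2 fold change of 0.71 ± 0.35 (SE, n = 3) was not called (edgeR filterByExpr fit, adjusted p = 0.636). The *Gbp1* row had 0, 1 and 2 counts in E861A and 0 in every WT library, where a count of 0 allows up to 0.0799 to 0.0838 CPM (3 counts); no fold is given.

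*Gbp10* had the largest fold change of the family, from few counts. It had 17, 30 and 16 counts in E861A and 1, 5 and 2 counts in WT. The libraries of the 2 genotypes were far apart, and the log2 fold change was 3.16 ± 0.45 (SE, n = 3; edgeR filterByExpr fit, adjusted p = 0.00104). With 1, 5 and 2 counts in WT, *Gbp10* entered this fit only through its E861A libraries, so its call is a description. At equal depth, the 63 counts in E861A were 9.42 times the 8 in WT (95% exact interval 4.50 to 22.8, counting error only). Reads from *Gbp10* and *Gm43302* are hard to tell apart: of the 75-base windows of the vM1 exons, 69.6% in *Gbp10* and 68.2% in *Gm43302* also occur in the other gene. The read length was 75 bases per mate, and a pair spans more sequence than 1 window. The level of each row is therefore uncertain. The sum of these 2 rows was 4.92, 4.99 and 5.23 CPM in E861A and 1.39, 1.44 and 1.48 CPM in WT. Its ratio was 3.51. Only reads with a unique alignment were counted, so the sum lacks reads that match both rows equally and is not their full combined level.

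For the other members such sharing was small. Windows that occur in another *Gbp* gene made up 0.955% of those of *Gbp2*, 1.26% of *Gbp7*, 2.12% of *Gbp3*, 3.77% of *Gbp9*, 5.64% of *Gbp4* and 7.10% of *Gbp8*. *Gbp3* and *Gbp7* shared 70 windows with each other, and *Gbp5* shared 0 with the family. *Gbp11*, at 21.0%, is also uncertain.

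The members differed in level once gene length was taken into account. In WT brain, the mean level per kb of exon was 1.21 ± 0.0986 CPM for *Gbp7*, 0.873 ± 0.163 for *Gbp3*, 0.754 ± 0.107 for *Gbp2*, 0.675 ± 0.0843 for *Gbp9*, 0.316 ± 0.0138 for *Gm43302*, 0.268 ± 0.0446 for *Gbp4* and 0.0592 ± 0.0205 for *Gbp8* (SD, n = 3). *Gbp7* was above all others without overlap. The ranges of *Gbp3* and *Gbp2* overlapped, as did those of *Gbp2* and *Gbp9* and those of *Gm43302* and *Gbp4*. The place of *Gm43302* is uncertain. Of its windows, 71.4% also occur in other *Gbp* genes, and only reads with a unique alignment were counted, so its level per kb can be too low.

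In E861A brain the first 2 places were exchanged. *Gbp3* was at 2.35 ± 0.309 CPM per kb and *Gbp7* at 2.01 ± 0.405 CPM per kb (SD, n = 3), and *Gbp3* was above *Gbp7* in 3 of 3 libraries although their ranges overlapped. *Gbp2* (1.83 ± 0.336) overlapped *Gbp7*. *Gbp9* (1.18 ± 0.0920), *Gm43302* (1.01 ± 0.0551), *Gbp4* (0.628 ± 0.136) and *Gbp8* (0.149 ± 0.0830) followed, each without overlap with its neighbours. As in WT, the place of *Gm43302* in this order is uncertain.

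**Figure D2:**
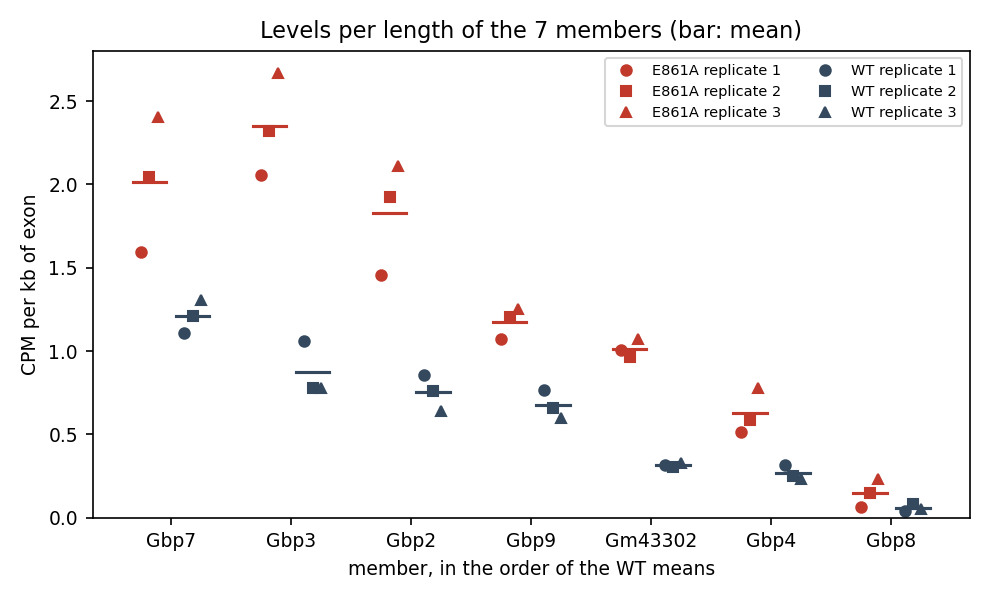
CPM per kb of exon (linear axis from 0) of the 7 members in each library of E861A (red) and WT (blue), in the order of the WT means; bars are means of 3 libraries. *Gbp7* leads in WT with a mean of 1.21, and *Gbp3* leads in E861A with 2.35. The level of *Gm43302* can be too low, because most of its sequence windows also occur in other *Gbp* genes.

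Whether members changed unequally was examined within libraries, where the ratio of 2 counts does not depend on depth or scaling. For every *Gbp7* count there were 0.751, 0.663 and 0.648 *Gbp3* counts in E861A replicates 1, 2 and 3 and 0.558, 0.377 and 0.346 in WT. The groups did not overlap, and the mean log2 ratio differed by 0.72. *Gbp7* counts per *Gm43302* count were 2.04, 2.73 and 2.89 in E861A and 4.52, 5.14 and 5.10 in WT, a log2 difference of -0.96. *Gbp9* stayed closer to *Gbp7*. Its ratio to *Gbp7* was 0.341 to 0.441 in E861A and 0.300 to 0.451 in WT, and these ranges overlapped. Of the 21 pairs among the 7 family rows with at least 100 counts over the 6 libraries, 12 did not overlap between genotypes. None reached significance, since the exact two-sided permutation test cannot go below p = 0.1 (0.175 after adjustment over the 21 pairs). The 21 pairs come from the same 7 rows, so they are not independent. The share of other gene pairs without overlap was not computed, so the count of 12 is only a description.

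As shares of the members' counts, *Gbp7* made up 29.6% to 32.9% in E861A and 35.3% to 44.8% in WT. *Gbp9* was likewise a smaller share in E861A (11.2% to 13.0%) than in WT (13.4% to 15.9%). *Gbp3* was a larger share in E861A (21.3% to 22.2%) than in WT (15.5% to 19.7%), as was *Gm43302* (11.4% to 14.5% against 7.81% to 8.79%). The shares of *Gbp2*, *Gbp4* and *Gbp8* overlapped between genotypes.

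**Figure D3:**
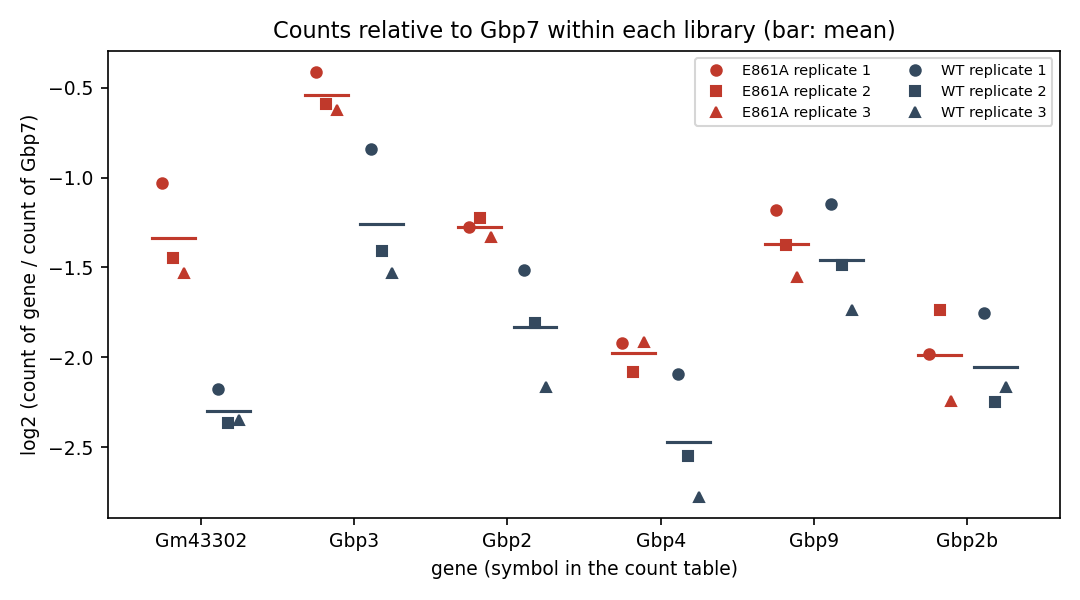
Log2 ratio of the count of each gene to the count of *Gbp7* in the same library, for E861A (red) and WT (blue); points are libraries and bars are means of 3. *Gm43302*, *Gbp3*, *Gbp2* and *Gbp4* lie higher relative to *Gbp7* in all E861A libraries than in any WT library, while *Gbp9* and the *Gbp2b* row overlap.

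A few of the listed interferon signalling genes were higher too. Of the 6 listed interferon regulatory factors, all were tested and 1 was called higher, *Irf7*. Of the 4 listed feedback genes and co-activators, 1 was tested and called higher, *Nlrc5*. Over all genes tested, 0.41% were called higher. *Irf7*, an interferon regulatory factor that is itself induced by interferon, was at 2.89, 3.34 and 3.87 CPM against 1.88, 0.77 and 1.56 CPM, with a log2 fold change of 1.26 ± 0.23 (edgeR adjusted p = 0.0225). *Nlrc5*, the co-activator of MHC class I genes, was at 2.14, 2.26 and 2.29 CPM against 0.87, 0.75 and 0.50 CPM, with a log2 fold change of 1.65 ± 0.20 (edgeR adjusted p = 0.000487). The groups were separate for both. *Irf7* and *Nlrc5*, like *Igtp* and *Iigp1* below, reached 2 CPM in every library only in E861A; all 4 were called with filterByExpr as well.

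No listed receptor (0 of 4) or kinase (0 of 3) was called by edgeR, with 0 at an unadjusted p under 0.05, and 0 were called by DESeq2 or limma-voom. The most abundant receptors, *Ifnar1* and *Ifngr2*, had log2 fold changes of -0.02 ± 0.05 and -0.01 ± 0.07, and the most abundant kinases, *Jak1* and *Jak2*, of 0.01 ± 0.04 and 0.04 ± 0.05 (SE, n = 3). *Irf9*, another interferon regulatory factor, had a log2 fold change of 0.37 ± 0.10 that was not called (edgeR adjusted p = 0.238) and was called with the replicate block (adjusted p = 0.0466). *Irf1*, a factor induced by interferon gamma that acts on *Gbp* genes, was at 3.16, 3.54 and 4.10 CPM against 3.25, 2.82 and 2.77 CPM and was not called (edgeR adjusted p = 0.573). The interferon genes on the list, *Ifnb1*, *Ifna4* and *Ifng*, had 0 counts throughout; a count of 0 limits their level to 0.0799 to 0.113 CPM, depending on the library.

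The immunity-related GTPases (IRGs), which are induced with GBPs and act with them at pathogen vacuoles, were higher in E861A in most cases. In the main test 3 of 4 were called, where 0.41% of all genes tested were called higher. With filterByExpr 6 of 8 were called, where the share over all genes was 0.449%. The median log2 fold change over the 4 was 1.02. Of these, *Igtp* and *Iigp1* could enter the main test only by being higher in E861A, so this median is a description. *Iigp1* was at 3.80, 4.60 and 4.96 CPM in E861A and 0.98, 1.20 and 0.87 CPM in WT, and *Irgm2* at 4.31, 5.35 and 5.87 against 2.37, 2.77 and 2.23 CPM. Their log2 fold changes were 2.12 ± 0.17 and 1.07 ± 0.15, and that of *Igtp* was 0.98 ± 0.18 (SE, n = 3). *Irgm1*, a regulator of the other IRGs, had a log2 fold change of 0.45 ± 0.09 that missed the threshold in the main test (edgeR adjusted p = 0.0613) and passed it with the replicate block (0.0416) and with filterByExpr (0.0389). *Tgtp1* and *Tgtp2*, a near-identical pair whose separate levels are uncertain, had log2 fold changes of 1.75 ± 0.28 and 2.46 ± 0.30 in the filterByExpr fit (edgeR adjusted p = 0.00374 and 0.000193). *Gm12250* and *Irgc1* were not called.

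The other listed genes that work with GBPs were not called by edgeR in either fit, nor by DESeq2 or limma-voom. These were the inflammasome genes (0 of 8 tested with filterByExpr, 2 at an unadjusted p under 0.05), the ubiquitin-like conjugation genes that guide GBPs to vacuoles (0 of 9, with 0 unadjusted) and the enzymes that add and process the lipid anchor (0 of 5, with 1 unadjusted). An unadjusted p under 0.05 was seen for 1575 of all 19366 genes in the filterByExpr fit. Median log2 fold changes of these groups in that fit, in the same order, were 0.29, 0.02 and -0.02. Log2 fold changes of their most abundant genes are given from the main fit (SE, n = 3). They were 0.04 ± 0.09 for *Il18* and 0.20 ± 0.14 for *Aim2*. For *Gabarapl1* and *Map1lc3b* they were -0.07 ± 0.06 and -0.07 ± 0.05, and for *Icmt* and *Fnta* -0.05 ± 0.07 and -0.02 ± 0.05. Among the dynamin-like relatives, the interferon-induced *Mx1* and *Gvin1* were higher in the filterByExpr fit, with log2 fold changes of 2.10 ± 0.36 and 1.60 ± 0.32 (SE, n = 3; edgeR adjusted p = 0.00567 and 0.0252). They were too low for the main filter, and DESeq2 called *Mx1* and not *Gvin1*. In WT, *Mx1* had 4, 6 and 10 counts and *Gvin1* had 9, 7 and 7. Both genes passed filterByExpr through their E861A libraries, so these calls are descriptions. Copies similar to *Gvin1* exist, so its level is uncertain. *Mx2* was not called (0.73 ± 0.19, edgeR adjusted p = 0.157). None of the 3 atlastins, membrane-fusing GTPases related to GBPs, was called (0 at an unadjusted p under 0.05, and 0 by DESeq2 or limma-voom). Their log2 fold changes in the main fit were -0.03 ± 0.05 for *Atl1* and 0.02 ± 0.05 for *Atl2*.

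**Figure D4:**
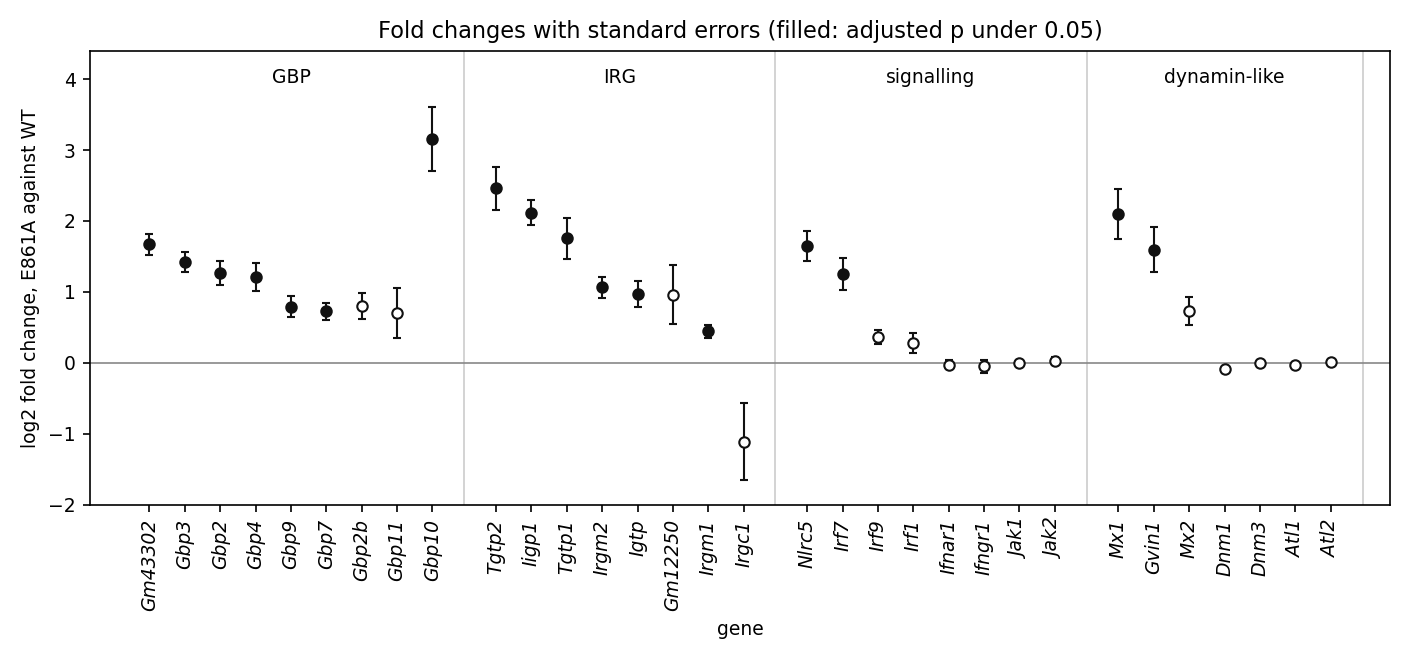
Log2 fold change of E861A against WT with its standard error (n = 3 per genotype) for *Gbp* rows, immunity-related GTPases (IRG), interferon signalling genes and dynamin-like relatives, all from the edgeR fit with filterByExpr; filled points have an adjusted p under 0.05. The 6 tested members run from 0.73 (*Gbp7*) to 1.67 (*Gm43302*), while receptors, kinases, dynamins and atlastins lie near 0.

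Total counts ranged from 26853488 to 38076753 per library. *Adar* had a log2 fold change of 0.10 ± 0.11 (edgeR adjusted p = 0.822), and *Ifih1* of 0.36 ± 0.19 in the filterByExpr fit (adjusted p = 0.665); a point mutation, and transcripts that remain from a disrupted gene, are not checked by these counts. Markers of neurons and oligodendrocytes, led by *Snap25* and *Mbp*, were abundant in all libraries. In whole tissue, a change in the number of cells of a type cannot be told apart from a change in RNA per cell.

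Markers of cells that can carry GBP transcripts were set beside the members. Of 10 microglial genes, led by *Csf1r*, 0 were called by edgeR, DESeq2 or limma-voom, with 1 at an unadjusted p under 0.05. Their sum was 186 to 204 CPM in E861A and 195 to 207 CPM in WT. The 8 astrocyte genes summed to 5612 to 5999 CPM in E861A and 4971 to 5392 CPM in WT, with no overlap and a median log2 fold change of 0.03. Most of each sum came from the most abundant gene, *Slc1a2*, at 4055 to 4309 CPM in E861A and 3443 to 3734 CPM in WT. *Slc1a2* was not called in the main test (edgeR adjusted p = 0.261) and was called by DESeq2 under filterByExpr (adjusted p = 0.0321). The 10 endothelial genes summed to 170.0 to 216 CPM in E861A and 217 to 253 CPM in WT, with no overlap. Their median log2 fold change was -0.32, and 6 had an unadjusted p under 0.05 in the main edgeR test. Over all 13649 genes in that test, 1230 had an unadjusted p under 0.05. Under filterByExpr, DESeq2 called 2 of the 10 lower, *Flt1* (adjusted p = 0.00245) and *Slc2a1* (adjusted p = 0.0355). The most abundant, *Flt1*, fell by 0.38 on the log2 scale in the filterByExpr fit (edgeR adjusted p = 0.0445) and was not called in the main test (adjusted p = 0.0817). Lymphocyte markers, led by *Cd4*, summed to 4.10 to 4.82 and 4.11 to 4.50 CPM, with *Cd3d*, *Nkg7*, *Gzma*, *Gzmb* and *Ncr1* at 0 to 0.11 CPM.

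Of the 5 markers of blood myeloid cells tested with filterByExpr, 0 were called by edgeR or DESeq2. An unadjusted p under 0.05 was seen for 3 of these 5, and for 1575 of all 19366 genes in the edgeR fit. The blood myeloid markers, led by *Lyz2*, summed to 8.84 to 16.8 CPM in E861A and 5.65 to 8.05 CPM in WT. The highest of these sums was in a library that was also highest for all members, E861A replicate 3, where *S100a8* was at 3.54 CPM against 0.64 and 0.98 CPM in the other E861A libraries. With the replicate block under filterByExpr, *S100a8* and *S100a9* were called (edgeR adjusted p = 0.00283 and 0.0140). Pituitary hormone transcripts summed to 1.99 to 431 CPM in E861A and to 2.02 to 3.14 CPM in WT. The sum of 431 CPM was in E861A replicate 1, where *Gh* was at 286 CPM. With the block under filterByExpr *Gh* was called (edgeR adjusted p = 3.21e-06). E861A replicate 1 was the lowest of its group for 6 of 7 members, and without it 6 of 6 members were called. Choroid plexus markers, led by *Ttr*, summed to 217 to 332 CPM in E861A and 393 to 405 CPM in WT. Erythroid markers, led by *Hbb-bs*, summed to 108 to 129.6 CPM and 114 to 229.6 CPM. With the replicate block in the main test, *Slc2a1* (log2 fold change -0.33, adjusted p 0.0147), *Ttr* (-0.54, 0.0241) and *Slc1a2* (0.20, 0.0374) were called by edgeR. Under filterByExpr without the block, DESeq2 called *Slc2a1* (adjusted p = 0.0355) and limma-voom called *Ttr* (adjusted p = 0.0446), both lower in E861A. The part of these differences in tissue content in the GBP result was not tested.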

How the data were processed

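Whole-brain RNA depleted of ribosomal RNA was sequenced as 75-base pairs from 3 E861A and 3 WT libraries, grouped by the *Adar1* genotype in the labels. The authors aligned reads to NCBIM37 (mm9) with STAR and took gene counts from STAR, which counts reads with a unique alignment; the strand column used is not given in the sources used here. The submitters' processing notes name Trimmomatic 0.36 and STAR 2.5.2a. The deposited raw counts per gene were the only values used. The other deposited tables, of CPM and of the authors' edgeR fold changes and false discovery rates, were not used. Symbols were missing for 4538 rows, and gene models came from GENCODE vM1.

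Genotypes were compared with edgeR 4.0.16 under R 4.3.3 (TMM scaling on column totals, quasi-likelihood test, no covariates, adjusted p under 0.05). A gene entered the test with 2 CPM or more in all 3 libraries of E861A or of WT, as in the study's methods, and members too low for this were read from a filterByExpr fit. CPM values are TMM-scaled. Exon length is the union of exons. A 75-base window was called shared with another *Gbp* gene if it occurs unchanged in that gene's span or vM1 transcripts, on either strand. In simulated data of the same 13649 genes, all changed genes with absolute log2 fold changes of 1 and 2 were recovered. Smaller changes, such as those of *Gbp7* and *Gbp9*, were not simulated, so recovery at that size is not known. Alternatives used limma 3.58.1 and DESeq2 1.42.0.

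The labels describe independent replicates. Replicate numbers were shared between genotypes. The deviations of same-numbered libraries from their genotype's mean correlated at r = 0.227, 0.338 and 0.117 over genes. Those of differently numbered libraries correlated at -0.261 to 0.0511. The numbers were treated as pairing libraries in an alternative fit, the replicate block, and not in the main test. This pairing was read from the same counts, and no source says what the number marks. A call made only with the block is therefore to be read with caution. A value with the replicate block is printed where the block changes a call. The members, gene lists and tests were chosen with earlier results of these data known. Genes are named if they belong to the family, if they are called on a list, if they are the 2 most abundant of a list group with no call, or if they lead a marker list. An item of the signalling list is not reported here.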

Additional observations from a re-analysis of the deposited data

How the results depend on the processing

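The direction of each of the 6 tested members was the same under every alternative, and of 120 alternative values of single-gene fold changes 0 reversed. With 6 members called, 3 remained with CPM of at least 2 required in all 6 libraries, where 3 members were left to test. Omitting libraries gave 3 to 6 called members, in the main test and with filterByExpr. The replicate block changed no call among the 6; the calls it did change are given beside the results. Calls across all genes went from 69 to 110 with filterByExpr, 376 without a filter, 42 with the stricter filter, 139 with the likelihood ratio test, 158 with the replicate block, 113 without E861A replicate 2, 42 without E861A replicate 3 and 108 without WT replicate 2. The partner genes called went from 3 to 6 with filterByExpr, and the relatives called from 0 to 3; of these 6 gained calls, 5 were of genes tested only with filterByExpr, and *Irgm1* was tested in both; omitting libraries gave 0 to 1 relatives, 1 being called without E861A replicate 1. The log2 ratio of summed member levels was 1.09, and 0.97 to 1.19 with a library omitted. The log2 fold change of *Gbp10* was 2.78 to 3.92 over its 11 alternatives, called in all 11. Each of these used filterByExpr, which *Gbp10* passed only through its E861A libraries. With 4 to 16 counts per library, depth limits what can be said of *Gbp8*.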
